A study of Mus musculus with 2 samples.

Results

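The lipoxygenases and epoxide hydrolases described here are 10 mouse genes, 7 lipoxygenases (Alox12b, Aloxe3, Alox8, Alox12, Alox12e, Alox15 and Alox5) and 3 epoxide hydrolases (Ephx1, Ephx2 and Ephx3). They were chosen by name, as the enzymes that act next to Sdr9c7 in the oxidation of linoleate acylceramides or as relatives of those enzymes. The array carried 13 probes for them out of 39429 in all, and every gene had at least 1. Of the 10 genes, 8 were well above background on both arrays, out of 22719 such gene names among the 31044 with a probe.

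RNA came from dorsal skin of newborn mice at postnatal day 0 on a C57BL/6J background, Sdr9c7-/- (knockout) or Sdr9c7+/+ (wild type). Each genotype was represented by 1 array, which received equal amounts of total RNA from 5 pooled animals, so the values carry no spread between animals and no test between genotypes was possible. The series' design text calls the tissue epidermis and the labels call it skin. Collagen, muscle and fat transcripts were well above background on both arrays, so the RNA is treated as that of whole skin. Which exons of Sdr9c7 the knockout allele lacks is not stated in the labels, and whether the array's probe lies in them is therefore unknown.

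Lipoxygenases are iron enzymes that add oxygen to polyunsaturated fatty acids, and epoxide hydrolases open epoxides with water. In the outer epidermis, Alox12b oxygenates the linoleate carried by acylceramides, Aloxe3 turns the resulting hydroperoxide into an epoxy alcohol, and Sdr9c7 oxidises that alcohol to a ketone, a form that can attach to proteins of the cornified envelope. Ephx3 is known to open the epoxy alcohol in another branch of the route. In people, loss of ALOX12B, ALOXE3 or SDR9C7 is a cause of congenital ichthyosis, a scaling disorder with a leaky skin barrier.

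The probes are 60 bases long, and their place in the transcript matters where 2 probes of a gene were compared. The Alox12b pair is shown because its probes gave differences of opposite sign. The capitals in the second one mark an isoleucine codon followed by the stop codon, with the reading frame before them open and 18 bases after them. A C-terminal isoleucine is known in lipoxygenases as a ligand of the catalytic iron. The probe with the lower start position of Alox12 and of Ephx1 is shown because each of these genes also has 2 probes, and the Alox15 probe because it marks a transcript that did not reach the detection limit. The start positions are those listed in the files, taken as positions in the named transcript. All are printed 5′ to 3′ and in lower case apart from those capitals.
Alox12b, start 1429: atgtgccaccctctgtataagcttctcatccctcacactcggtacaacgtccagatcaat
Alox12b, start 2239: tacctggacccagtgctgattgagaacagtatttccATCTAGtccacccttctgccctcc
Alox12, start 1090: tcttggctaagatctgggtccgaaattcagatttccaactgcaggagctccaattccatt
Ephx1, start 831: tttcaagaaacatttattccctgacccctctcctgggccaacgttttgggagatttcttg
Alox15, start 1426: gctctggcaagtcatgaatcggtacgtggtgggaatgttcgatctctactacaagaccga
On mm9, the build of the scanner files, the second Alox12b probe lies at chr11:68983186-68983245 on the plus strand, the Alox12 probe at chr11:70063629-70063688 on the minus strand and the Ephx1 probe at chr1:182924124-182924183 on the minus strand. The files give no genome position for the first Alox12b probe or for the Alox15 probe. No annotation of mm9 was used, so the probes were not placed in exons or UTRs. The Alox12, Ephx1, Alox15 and first Alox12b probes each had 2 reading frames with no stop codon.

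The values behind all results are processed Cy3 intensities, background-subtracted and corrected for spatial trends by the scanner's extraction software. The relative signal is the intensity divided by the 75th percentile of its own array, which was 1923 on the knockout array and 1747 on the wild type array. The knockout array had 76.8% of probes well above background and the wild type array 74.9%, and 0 spots were saturated. The log2 signals of measured genes correlated between the arrays with a Pearson r of 0.994, taken across genes and not across samples. Differences are log2 relative signal, knockout minus wild type, and their median over measured genes was −0.04. Probes bind with different efficiency, so a brighter probe was not read as a more abundant transcript. Summed signals of a list are weighted towards its brightest probes for the same reason.

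Sdr9c7, the deleted gene, had a processed intensity of 92.1 on the knockout array, against 567 on the wild type array. Its relative signal was 0.0479 in the knockout and 0.324 in the wild type, 6.78-fold lower in the knockout (log2 difference −2.76). After normexp background correction the difference was −2.05. Its probe remained well above background in the knockout and lies in a band of array rows in which spots scattered more between the arrays. Such areas were taken from earlier work on these same arrays as places where spots scatter, so a larger SD within them was built in. Over all measured spots, the SD of the log2 difference was 0.435 in such areas and 0.327 elsewhere. Among spots that were dim on the wild type array, of which the Sdr9c7 spot is not one, it was 0.60 in such areas and 0.40 elsewhere.

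None of the 8 measured lipoxygenases and epoxide hydrolases was at least 2-fold apart between the genotypes, in a dataset in which 1.88% of measured genes were. At a 1.5-fold threshold, 0 of the 8 were apart as well, against 8.41% of measured genes. A count of 0 among 8 genes is near both shares. Their differences ran from −0.25 for Ephx2 to 0.31 for Ephx3, with 4 above 0 and 4 below and a median of 0.07. Over all measured genes the 10th and 90th percentiles of the difference were −0.44 and 0.29, and Ephx3 alone of the 8 lay outside them. Shares and percentiles of measured genes, here and below, include dim genes and were not matched for signal. Outside the scattering areas, the SD of the difference was 0.40 for dim spots and 0.33 for all measured spots. The extraction software's error model gave a standard error of 0.20 for each probe's log2 difference. Of the 11 measured probes of these genes, 6 were beyond 1 standard error and 0 beyond 2. The same share over all probes was not computed. This standard error was alike at all 11 probes and is a value of the model, not a spread measured here. Over 320 probes with at least 8 usable spots, the median SD of the log2 difference between spots of a probe was 0.06.

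**Figure D1:**
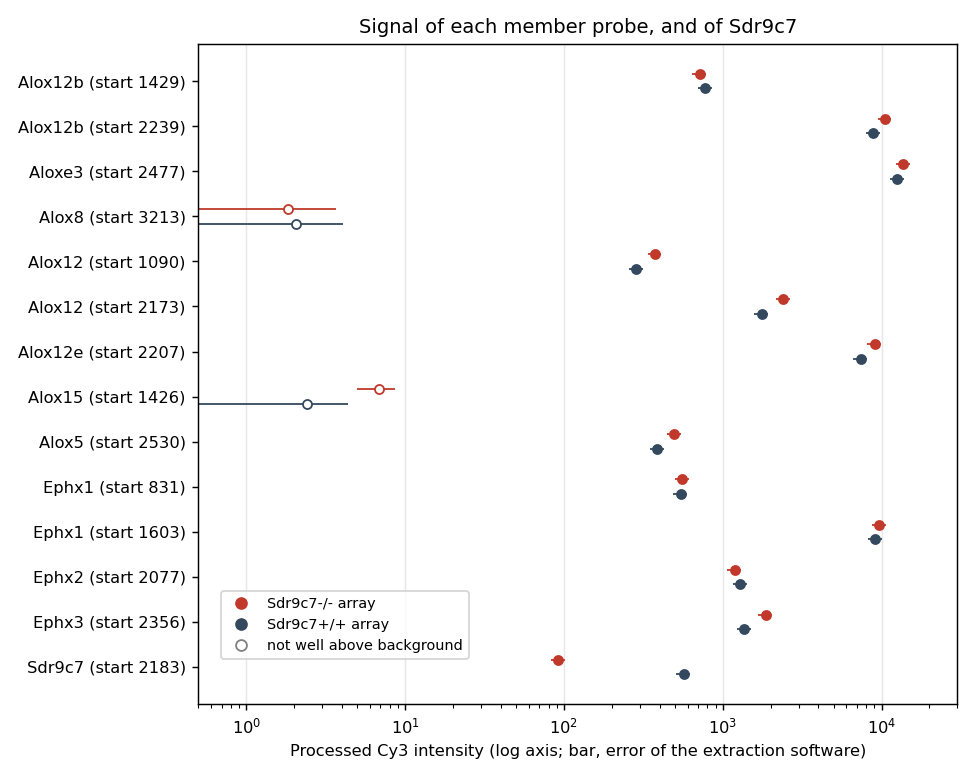
Processed Cy3 intensity (horizontal, log axis) of each probe on the knockout array (red) and the wild type array (dark), with the extraction software's error as bars; bars of open symbols run past the left edge where the error nearly equals the signal. Sdr9c7 stands apart with 92.1 in the knockout and 567 in the wild type, while each measured lipoxygenase or epoxide hydrolase probe lies close to its partner, and Alox8 and Alox15 lie below the detection limit on both arrays.

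The enzymes directly before Sdr9c7 in the acylceramide route, Aloxe3 and Alox12b, were close to level. Aloxe3, the hydroperoxide isomerase whose product Sdr9c7 oxidises, had an intensity of 13724 in the knockout and 12570 in the wild type. Its relative signals were 7.14 in the knockout and 7.20 in the wild type, a log2 difference of −0.01 that turned to the other side of 0 under 4 of the 6 alternative settings that moved it, none of which took it beyond 0.06. Of measured genes, 95.6% lay at least as far from 0.

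Alox12b, the lipoxygenase that starts the route, was measured by 2 probes that went apart. The probe across the stop codon had an intensity of 10462 in the knockout and 8865 in the wild type, and relative signals of 5.44 in the knockout and 5.08 in the wild type, a difference of 0.10. The probe with start 1429 had an intensity of 714 in the knockout and 774 in the wild type, and relative signals of 0.371 in the knockout and 0.443 in the wild type, a difference of −0.25. The brighter probe was thus slightly higher in the knockout and the dimmer one lower.

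The gap between the Alox12b probes was 0.35 on the log2 scale. Among 2942 genes with exactly 2 measured probes outside the scattering areas the median gap was 0.15, and 17.5% had a gap at least as large. The dimmer Alox12b probe lies in a scattering band, the only one of the 13 probes to do so. The SD of the difference over the spots around that probe was 0.34. It was 0.29 around the other Alox12b probe and 0.35 around the Ephx3 probe, both outside the scattering areas. The mean over both probes was −0.08, and with the scattering areas left out, which leaves the probe across the stop codon alone, the difference was 0.10. The sign of the Alox12b difference therefore rests on the choice of probe.

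**Figure D2:**
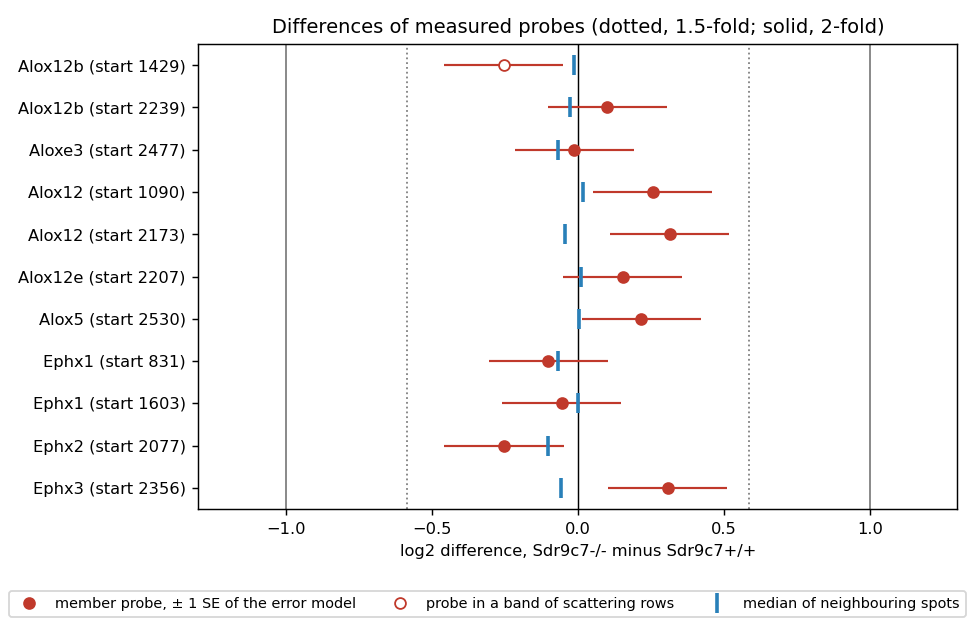
log2 difference, knockout minus wild type (horizontal), of each of the 11 measured probes, with 1 standard error of the extraction software's error model; blue ticks give the median difference of spots within 8 rows and 8 columns, and the open symbol is the probe in a scattering band. All points lie between −0.25 and 0.31, inside the dotted lines at 1.5-fold, and the Alox12b probes lie on either side of 0.

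Ephx3, the epoxide hydrolase of the acylceramide route, had the highest difference of the 8. Its intensity was 1860 in the knockout and 1365 in the wild type, and its relative signal 0.967 in the knockout and 0.782 in the wild type, 1.24-fold higher in the knockout. The log2 difference of 0.31 stood at percentile 91.1 of measured genes, and 25.5% of genes were at least as far from 0 in either direction. Of the 9 alternative settings, 6 moved this value, and it stayed between 0.31 and 0.36; the other 3 leave a single bright probe as it is. The median difference of the 190 measured spots around it was −0.06. Its 1 probe leaves no check within the gene.

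The other epoxide hydrolases had differences below 0. Ephx2, the soluble enzyme that hydrolyses epoxides of fatty acids, had an intensity of 1186 in the knockout and 1284 in the wild type. Its relative signal was 0.617 in the knockout and 0.735 in the wild type, 1.19-fold lower in the knockout (log2 difference −0.25). The spots around its probe had a median of −0.10, the lowest at any of the 13 probes, and with that local median subtracted the difference was −0.15.

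Ephx1, the microsomal enzyme known for detoxifying epoxides of foreign compounds, had 2 probes. The probe with start 831 had intensities of 558 in the knockout and 543 in the wild type, which scaling turned into relative signals of 0.290 in the knockout and 0.311 in the wild type. The probe with start 1603 had intensities of 9680 in the knockout and 9136 in the wild type, with relative signals of 5.03 in the knockout and 5.23 in the wild type. The probes differed by −0.10 and −0.06, each within 1 standard error of the error model, and their mean was −0.08. Median scaling and normexp correction each gave −0.03.

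Of the other lipoxygenases, Alox12, Alox12e and Alox5 were measured, with differences above 0. Alox12, an arachidonate lipoxygenase of platelets that is also known from epidermis, was the only gene of the set with 2 probes on the same side above 0. Its probe with start 1090 had an intensity of 374 in the knockout and 284 in the wild type, a difference of 0.26. Its probe with start 2173 had an intensity of 2400 in the knockout and 1754 in the wild type, a difference of 0.31. The knockout array was the brighter one at both Alox12 probes, and their mean of 0.28 is a 1.22-fold difference, with 28.2% of measured genes at least as far from 0. Under the alternatives it ran from 0.24 to 0.33.

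Alox12e, the epidermal arachidonate lipoxygenase of mice, had an intensity of 9045 in the knockout and 7385 in the wild type. Its relative signal was 4.70 in the knockout and 4.23 in the wild type. The log2 difference of 0.15 lies within 1 standard error of the error model. Alox5, which makes leukotrienes in leukocytes, had an intensity of 494 in the knockout and 386 in the wild type. Its relative signals were 0.257 in the knockout and 0.221 in the wild type, a difference of 0.22. Both stayed above 0 under the 6 alternatives that moved them, and 52.0% of measured genes were at least as far from 0 as Alox12e and 38.7% as Alox5.

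Alox8 and Alox15 were not well above background on either array, so neither has a fold. The Alox8 probe, for a lipoxygenase known in mouse skin treated with phorbol esters, had an intensity of 1.84 with an error of 1.83 in the knockout, and 2.05 with an error of 2.04 in the wild type. The Alox15 probe, for a lipoxygenase of macrophages and eosinophils, had an intensity of 6.85 with an error of 1.85 in the knockout, and 2.41 with an error of 1.99 in the wild type. Its relative signals of 0.00356 in the knockout and 0.00138 in the wild type lay under the lowest signal taken as well above background, which was 0.00427 on the knockout array and 0.00563 on the wild type array. The eosinophil markers Prg2, Epx and Ccr3 and the Langerhans cell marker Cd207 were also not well above background on either array.

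**Figure D3:**
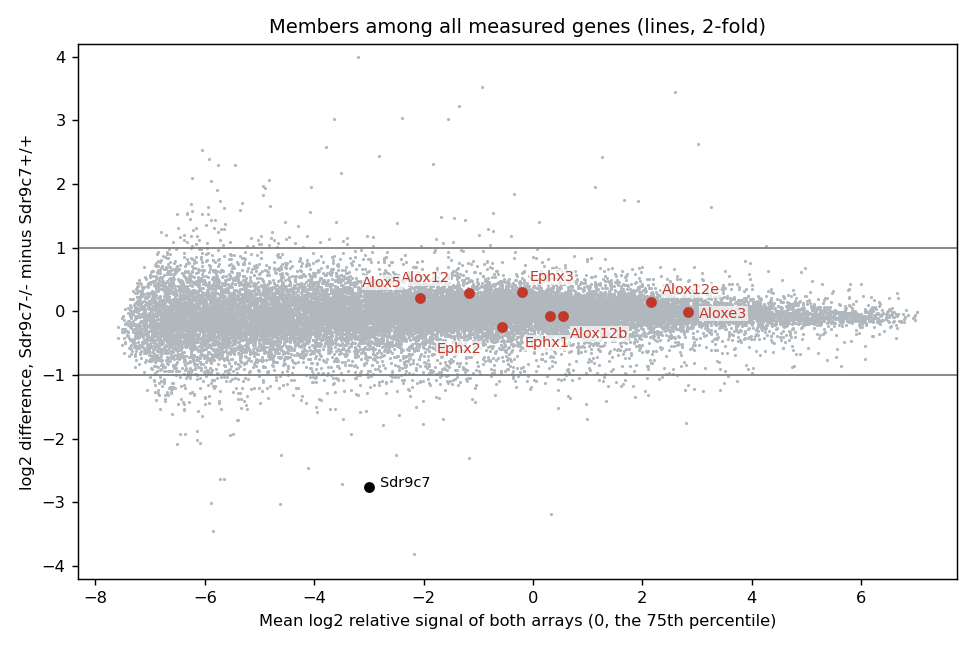
log2 difference, knockout minus wild type (vertical), against the mean log2 relative signal of both arrays (horizontal), for all measured genes (grey, 2 of them outside the plotted range), with Sdr9c7 in black and the 8 measured lipoxygenases and epoxide hydrolases in red. The red points lie within the grey body of genes, between −0.25 and 0.31, and Sdr9c7 lies at −2.76.

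Some of the lipoxygenase genes share position as well as function. In the gene order of the RefSeq table (GRCm38.p6), Aloxe3, Alox12b and Alox8 are consecutive protein-coding genes on chromosome 11, and Alox12, Alox12e and Alox15 are consecutive elsewhere on the same chromosome. Within each trio the last gene was not well above background on either array. Aloxe3 and Alox12b had differences of −0.01 and −0.08, and Alox12 and Alox12e 0.28 and 0.15.

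Alox12b, Aloxe3 and Ephx3 are transcripts of differentiating keratinocytes. In these bulk samples, a different number of such cells cannot be told apart from a different amount of RNA per cell. Of 17 measured markers of granular and cornifying keratinocytes, 8 were above 0 and 9 below, with a median of −0.03. They ranged from Krt2, a suprabasal keratin, at −0.69 to Tgm3, a crosslinking enzyme of the envelope, at 0.27. Krt2 was the dimmest of them, at 0.0439 in the knockout and 0.0710 in the wild type. The next lowest difference was that of Lce1a1, at −0.46. Their summed relative signal was 468 in the knockout and 504 in the wild type. Aloxe3 had a higher difference than 9 of the 17. Alox12b had a higher one than 8 of them by the mean of its probes, and than 12 by the probe outside the scattering band. The median of the 17 lay on the other side of 0 under quantile, median and loess scaling and with the brightest probe, up to 0.06. Ephx3 and Alox12 each had a higher difference than all 17 of these markers, with Tgm3 next below them. The 10 basal keratinocyte markers had a median of 0.11, from Trp63 at −0.09 to Dst at 0.47, and a summed relative signal of 177 in the knockout and 157 in the wild type.

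Markers of blood-derived cells, in which Alox5, Alox12 and Alox15 are known to be made, had medians from −0.07 to 0.39. The highest median was that of the 2 measured eosinophil markers, both dim, and the next highest was 0.17 for mast cells. The differences of Alox5 and Alox12 were 0.22 and 0.28. The 6 measured macrophage and Langerhans cell markers had a median of 0.07, from Lyz2 at −0.07 to Cd163, a dim one, at 0.43. Summed relative signals of these markers were 5.77 in the knockout and 5.49 in the wild type. The 7 mast cell markers had a median of 0.17, with 6 above 0, from Tpsb2 at −0.19 to Ms4a2, a dim one, at 0.84. Summed signals of the mast cell markers were 66.2 in the knockout and 60.0 in the wild type. The 6 measured neutrophil markers had a median of −0.07, from Camp at −0.51 to Ltf at 0.17. Their summed signals were 2.91 in the knockout and 3.31 in the wild type. Ngp was well above background only in the knockout, with dim relative signals of 0.00938 in the knockout and 0.00486 in the wild type. Taking the lowest wild type signal flagged well above background, 0.00563, as a limit, it was at least 1.67-fold higher. Beside Alox12, the 6 platelet markers had a median of 0.12, from Ppbp at −0.36 to Gp9, a dim one, at 0.50. Their summed signals were 13.3 in the knockout and 14.7 in the wild type. Nearly all of these sums came from Pf4, with 13.0 in the knockout and 14.4 in the wild type. The 2 measured eosinophil markers, Siglecf at 0.30 and Ear1 at 0.46, were dim, with a sum of 0.0389 in the knockout and 0.0301 in the wild type. The part of these cells in the Alox5 and Alox12 differences was not tested.

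Skeletal muscle and fat markers had lower signals in the knockout. All 10 muscle markers had a negative difference, from Pvalb at −2.26 to Myh3 at −0.54, with a median of −0.91 and summed relative signals of 140 in the knockout and 245 in the wild type. All 8 adipocyte markers were below 0, from Cfd at −1.76 to Pparg at −0.02, with a median of −0.71 and summed signals of 52.5 in the knockout and 80.1 in the wild type. The part of this in the Ephx1 and Ephx2 values, enzymes made by many cell types, was not tested. Fibroblast markers had a median of −0.03, from Col1a1 at −0.20 to Pdgfra at 0.12, with sums of 311 in the knockout and 319 in the wild type. Endothelial markers had a median of −0.20, from Pecam1 at −0.30 to Tie1 at −0.16, with sums of 3.59 in the knockout and 4.14 in the wild type. Sebocyte markers had a median of 0.11, from Mc5r at −0.50 to Elovl3 at 0.29, with sums of 0.890 in the knockout and 0.896 in the wild type.

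**Figure D4:**
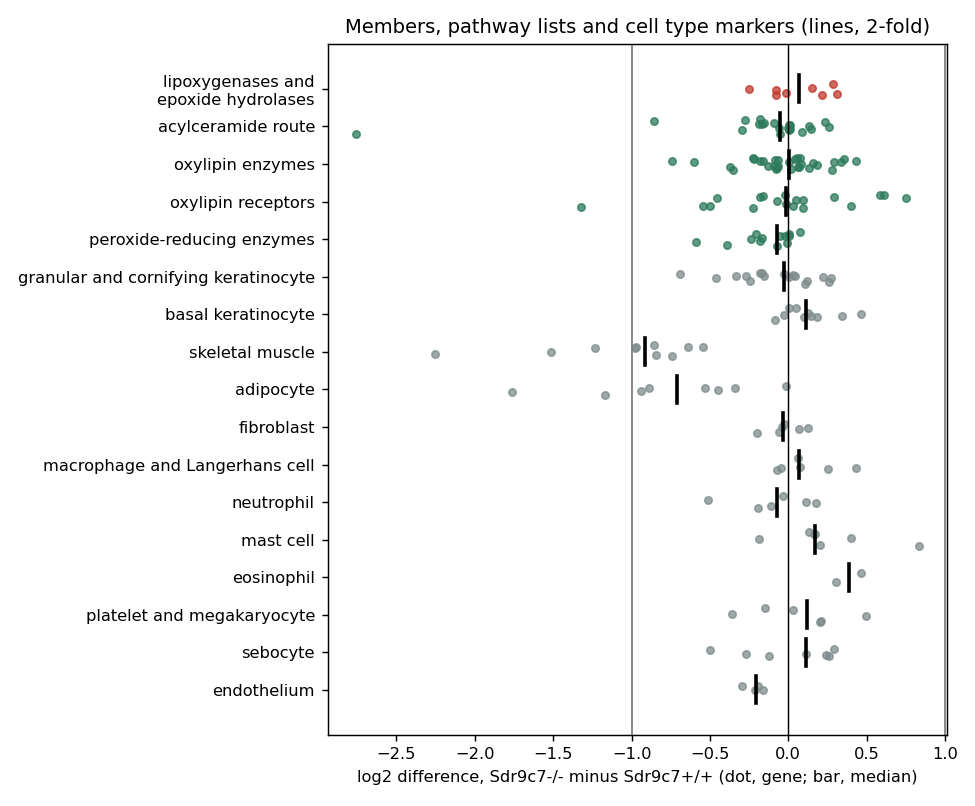
log2 difference, knockout minus wild type (horizontal), of each measured gene (dots) and the median (bars) for the lipoxygenases and epoxide hydrolases (red), the 4 pathway lists (green) and the cell type markers (grey). The red points and the green medians lie near 0, while the muscle and adipocyte markers have medians of −0.91 and −0.71.

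Other genes of the acylceramide route were mostly level. Of 21 measured, 0 were at least 2-fold higher and 1 at least 2-fold lower, Sdr9c7 itself, where 0.528% of all measured genes were higher by that much and 1.36% lower. The median was −0.06, with 9 above 0 and 12 below, and the median lay on the other side of 0, at 0.01, under quantile scaling and with the scattering areas left out. The lowest after Sdr9c7 was Degs2, a desaturase and hydroxylase of sphingolipids, at −0.85 with its probe in a scattering area, and the highest were Sptlc3 and Sptlc2, subunits of the enzyme that starts sphingolipid synthesis, at 0.24 and 0.26. Cyp4f39, which hydroxylates the ultra-long fatty acid to which linoleate is joined, had a relative signal of 0.498 in the knockout and 0.455 in the wild type, a difference of 0.13. Pnpla1, which joins linoleate to it, had 0.243 in both.

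Among the other enzymes that release, make or clear oxidised fatty acids, 0 of 31 measured were at least 2-fold apart, with a median of 0.00 that ran from −0.06 to 0.05 over the alternatives. At the 1.5-fold threshold 0 were higher and 2 lower, where 2.36% of all measured genes were higher and 6.05% lower. Those 2 were Ptgis, the prostacyclin synthase, which had a relative signal of 0.413 in the knockout and 0.691 in the wild type (−0.74), and the secreted phospholipase Pla2g2e at −0.60. The highest were Pla2g4a, the cytosolic phospholipase that releases arachidonate, with 1.72 in the knockout and 1.28 in the wild type (0.43), and Ptgr1, a reductase that clears prostaglandins and leukotrienes, at 0.35. The probes of Ptgis, Pla2g4a and Ptgr1 lie in scattering areas. Alox5ap, the partner protein that Alox5 needs for leukotriene synthesis, was level at −0.07, while Ephx4, a relative of Ephx3 with little known function, was at −0.16.

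Receptors for these lipids were more scattered and mostly dim. Of 22, 19 were measured and Ptgdr, Ptgdr2 and Ffar1 were not well above background on either array. The median was −0.02, and between 0.01 and 0.03 under 5 of the alternatives, with 0 at least 2-fold higher and 1 lower, Ptger2, a prostaglandin E2 receptor, at −1.32. Its relative signal was 0.00595 in the knockout and 0.0148 in the wild type, the first close to the detection limit. At the other end were Cysltr1, a receptor for cysteinyl leukotrienes, with 0.103 in the knockout and 0.0613 in the wild type (0.75), and the formyl peptide receptor Fpr2 at 0.61. The second lowest was Trpv1, an ion channel that some oxidised linoleates open, at −0.55. Ppara, Ppard and Pparg, nuclear receptors for fatty acids and their oxidised forms, were at −0.18, 0.10 and −0.02.

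The enzymes that reduce lipid and other peroxides, the substrates of Aloxe3 among them, had a median of −0.07, against −0.04 over all measured genes. Of 13 measured, 10 were below 0 and 3 above, where 56.9% of all measured genes were below 0, and 0 were at least 2-fold apart. The lowest were the glutathione peroxidases Gpx3 at −0.59 and Gpx2 at −0.39, and the highest Gpx8 at 0.08 and Gpx7 at 0.01. Gpx4, the glutathione peroxidase that reduces peroxides within membrane lipids, had a relative signal of 10.1 in the knockout and 11.9 in the wild type (−0.24).

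**Figure D5:**
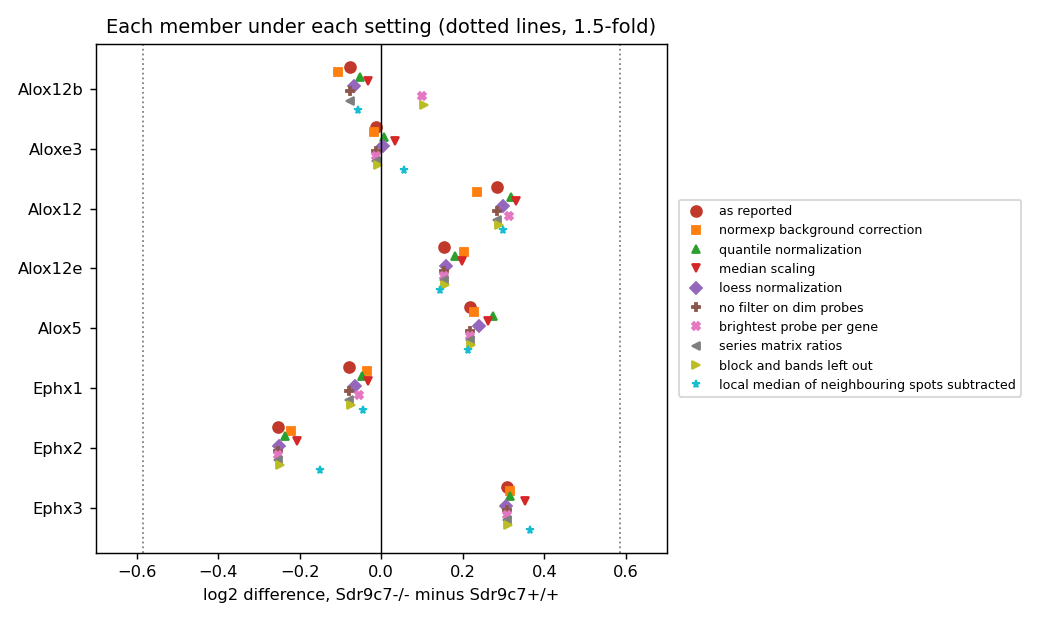
log2 difference, knockout minus wild type (horizontal), of each of the 8 measured genes as reported and under each of 9 other settings (symbols). Ephx3, Alox12, Alox12e and Alox5 stay above 0 and Ephx1 and Ephx2 below 0, Alox12b and Aloxe3 have settings on both sides, and no point reaches the dotted lines at 1.5-fold.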

How the data were processed

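Each scanner file gives intensity values for 44397 spots, which, per the file headers, the authors extracted with Agilent Feature Extraction 11.5.1.1. Spots flagged as outliers (192) and control spots were left out, log2 intensities of spots of 1 probe were averaged over 39417 probes, and the 75th percentile of each array was subtracted. A gene was the mean of its probes well above background on both arrays. The authors' series matrix, an alternative, holds a ratio, the processed intensity over 2080 (knockout, median 0.0840) and 1906 (wild type, median 0.0855); it is linear and not centred, and why those constants were used stays unknown. Names came from RefSeq accessions for 28330 probes, symbols for 2204 and synonyms for 174; 8721 kept the file's name. With 1 array per genotype no test was run. "Well above background" is the scanner software's flag. Python 3.11.15, R 4.3.3 and limma 3.58.1 (normexp, offset 50) were used, and the steps were tested on simulated data. Pathway lists name their 2 highest and 2 lowest genes and those at least 2-fold apart. They also name some chosen after their values were seen (Cyp4f39, Pnpla1, Alox5ap, Ephx4, Gpx4, Ppara, Ppard, Pparg). Marker lists name their highest, their lowest and those not well above background on either array. Every gene of the set with a probe and Sdr9c7 are named too. The genes, the lists and the scattering areas were chosen with earlier results of these data known.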

Additional observations from a re-analysis of the deposited data

How the results depend on the processing

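The 8 measured genes were recomputed under normexp correction, quantile, median and loess scaling, no filter on dim probes, the brightest probe, the series matrix ratios, the scattering areas left out, and a local median subtracted, the last chosen after seeing the data. Of 72 such values, 21 equal the reported ones by construction (the matrix ratios, the dim filter, and the brightest probe of a 1-probe gene). Of the other 51, 6 changed sign, all of Alox12b and Aloxe3. The count at least 2-fold apart was 0 except with no filter on dim probes, where it was 1. The count at least 1.5-fold apart was likewise 1 there and 0 otherwise. This gene is Alox15, which was not well above background on either array. The median over the genes ran from 0.07 to 0.13. Values moved by less than 0.21, the SD between probes of one gene pooled over 3461 genes, apart from Sdr9c7 after normexp correction (−2.05). No paired analysis was possible because each genotype had 1 array. Signal over background limits Alox8 and Alox15, and the number of arrays limits all else.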

Other observations

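The genes next to the lipoxygenases and epoxide hydrolases in the RefSeq gene order were listed after the data were seen. Of 12 neighbours outside the set, 11 were measured, with a median log2 difference of −0.09. Hes7, a transcriptional repressor of the Notch pathway next to Aloxe3, was the lowest at −0.42. The only neighbour at least 1.5-fold apart was 9130409I23Rik beside Ephx1, at 1.13, with dim relative signals of 0.0279 in the knockout and 0.0128 in the wild type and its spot in a scattering band.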
